A study of Homo sapiens with 2 samples.

Results

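Aminoacyl-tRNA synthetases are the enzymes that join each amino acid to its transfer RNA. The genes described here are 35 synthetase genes, 19 for the cytosolic and 16 for the mitochondrial enzymes. They were taken from a list of current NCBI symbols and matched by Entrez ID, and all 35 were found among the 27685 annotated genes of the data. The list does not hold every synthetase gene, and of the others only TARS3, a paralog of TARS1, is given a value here, among the related genes.

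RNA came from PLC/PRF/5, a long-established cell line of human hepatocellular carcinoma, after 24 h with 6 µM JIB-04 or with its solvent DMSO, and each condition had 1 library. JIB-04 inhibits Jumonji-type histone demethylases, enzymes that take methyl groups off histones. A label of the control sample says untreated, but its title and the methods of the study give DMSO, and it was used as the DMSO control. Libraries were built from polyadenylated RNA with a stranded kit, so the strand of each read was kept. The question was how the transcript levels of the synthetase genes in JIB-04-treated cells compared with those in DMSO-treated cells.

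A synthetase recognizes its amino acid and its transfer RNAs, activates the amino acid with ATP and transfers it to the end of the transfer RNA, and the charged transfer RNA then goes to the ribosome. Cytosol and mitochondria translate separately, and most mitochondrial synthetases are made from nuclear genes of their own, whose products are imported. Several cytosolic synthetases are held together in the multisynthetase complex by scaffold proteins. Many genes of the cytosolic enzymes are known targets of ATF4, the transcription factor of the integrated stress response, which cells mount when amino acids run short or protein folding is disturbed.

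Levels are given in TPM, each transcript's part of a fixed total of 1000000 after correction for its length, so that levels of different genes can be set side by side. For each gene the TPM of all its annotated transcripts was added up. Ratios are log2 of TPM + 1 in JIB-04 over TPM + 1 in DMSO, and a gene was said to rise or fall when that ratio reached 2-fold. With 1 library per condition there was no replicate check and no test. The interval after a ratio is a 95% exact conditional binomial interval from estimated fragments, and it covers counting error only. Of the 14450 genes with at least 1 TPM in either library, which include all 35 synthetase genes, the median log2 ratio was -0.15, and setting the median of well expressed genes to 0 moved every ratio upward by about 0.15.

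The JIB-04 library held about 23721989 fragments and the DMSO library about 28187792. All 11 listed hepatocyte and hepatoma markers reached 1 TPM in either library, with FGB, the fibrinogen beta chain, at 961 TPM in JIB-04 and 771 TPM in DMSO. However, ALB was at only 4.53 TPM in JIB-04 and 9.74 TPM in DMSO, and the lowest marker was near the limit, at 0.99 TPM in JIB-04 and 1.34 TPM in DMSO. None of the 3 endothelial markers reached 1 TPM, and of the leukocyte markers PTPRC was listed at 0 in both libraries, while CD68, a lysosomal protein of macrophages, was at 137 TPM in JIB-04 and 97.0 TPM in DMSO and CD14, a monocyte receptor, fell to 1.37 TPM in JIB-04, against 6.05 TPM in DMSO. Of 5 fibroblast or stellate markers 2 reached 1 TPM in either library. These were COL1A1, at 10.64 TPM in JIB-04 and 16.03 TPM in DMSO (-0.55), and a weaker one, at 0.77 TPM in JIB-04 and 1.22 TPM in DMSO. Among the 11 hepatocyte markers 1 fell, beside 6.88% of all described genes, APOB, to 32.9 TPM in JIB-04, against 103 TPM in DMSO. The highest ratio was that of TTR, at 7.06 TPM in JIB-04 and 3.91 TPM in DMSO (0.72). The part of changes in these markers in the synthetase ratios was not tested. In RNA from a whole culture, fewer cells of a kind and less RNA per cell cannot be told apart.

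The cytosolic synthetase genes spread widely around their DMSO levels, whereas most mitochondrial ones were lower in the JIB-04 library. Of the 19 cytosolic genes 2 rose, GARS1 and CARS1, beside 5.99% of all described genes. A further 2 fell, VARS1 and FARSB, beside 6.88% of all described genes. None of the 16 mitochondrial genes rose and 1 fell, MARS2, which missed 2-fold with median scaling and with quantile normalization. Read by sign alone, 11 of 19 cytosolic and 2 of 16 mitochondrial genes had a ratio above 0, against 39.7% of all described genes, and KARS1, IARS2 and PARS2 moved above it with median scaling. Counting error alone left 10 cytosolic and 1 mitochondrial interval wholly above 0, against 27.7% of described genes, and 8 cytosolic and 13 mitochondrial intervals wholly below 0, against 46.2%. The median log2 ratio was 0.16 for the cytosolic genes (quartiles -0.36 and 0.53) and -0.54 for the mitochondrial genes (quartiles -0.74 and -0.19). The difference of 0.69 lay between 0.56 and 0.89 under every other scaling, filter, pseudocount and transcript choice tried.

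**Figure D1:**
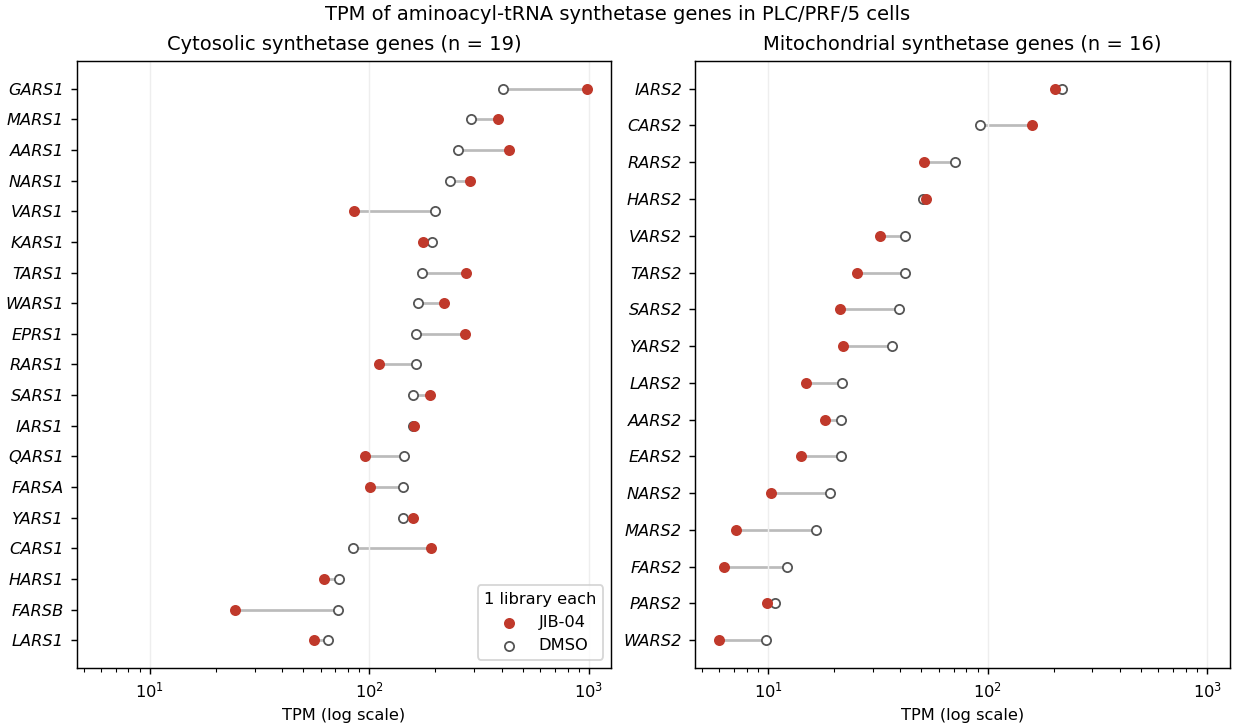
Levels of the 35 synthetase genes on a log axis of TPM, with filled points for the JIB-04 library and open points for the DMSO library, 1 library each. Cytosolic genes are on the left and mitochondrial genes on the right, ordered by DMSO level, and GARS1 reaches 980 TPM in JIB-04 against 407 TPM in DMSO.

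Summed levels followed the same split. The cytosolic genes together made up 4262 TPM in JIB-04 and 3283 TPM in DMSO, and the mitochondrial genes 655 TPM in JIB-04 and 725 TPM in DMSO. The cytosolic sum was therefore 6.50 times the mitochondrial sum in JIB-04 and 4.53 times in DMSO. Much of this came from 1 gene, since GARS1 held 23.0% of the cytosolic sum in JIB-04 and 12.4% in DMSO. Without GARS1 the cytosolic sum was 3281 TPM in JIB-04 and 2875 TPM in DMSO. GARS1 and KARS1 serve both compartments but are counted only in the cytosolic sum. The sums therefore compare lists of genes and not all enzymes of each compartment. The spread of levels among cytosolic genes was wider with the compound, with 40.0 times between the highest and the lowest gene in JIB-04 and 6.29 times in DMSO.

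GARS1 encodes glycyl-tRNA synthetase, which serves both the cytosol and the mitochondria from a single gene. It was the most abundant synthetase transcript in both libraries, at 980 TPM in JIB-04 and 407 TPM in DMSO, a log2 ratio of 1.27 from an estimated 23339 fragments in JIB-04 and 11739 in DMSO, and 96.3% of described genes had a lower ratio. CARS1, for cysteinyl-tRNA synthetase, was at 190 TPM in JIB-04 and 84.7 TPM in DMSO, a log2 ratio of 1.16 (1.09 to 1.22). In level it was 9th of the 35 genes in JIB-04 and 18th in DMSO.

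A group of 3 genes came next, short of 2-fold and with intervals well above 0. AARS1, the alanyl enzyme, was at 432 TPM in JIB-04 and 252 TPM in DMSO (log2 ratio 0.77). EPRS1, a fused enzyme that charges both glutamate and proline, was at 274 TPM in JIB-04 and 164 TPM in DMSO (0.74). TARS1, the threonyl enzyme, was at 277 TPM in JIB-04 and 174 TPM in DMSO (0.67). All 3 exceeded 1.5-fold, as GARS1 and CARS1 did. MARS1, which charges methionine and so also the initiator transfer RNA, was at 385 TPM in JIB-04 and 291 TPM in DMSO (0.40). WARS1, the tryptophanyl enzyme known to be induced by interferon, was at 219 TPM in JIB-04 and 167 TPM in DMSO (0.39). NARS1, for asparagine, was at 287 TPM in JIB-04 and 233 TPM in DMSO (0.30). These increases were smaller but beyond counting error, and the same held for SARS1 and YARS1. SARS1, whose enzyme charges serine and also primes the selenocysteine transfer RNA, had 189 TPM in JIB-04 and 158 TPM in DMSO (0.25). YARS1, for tyrosine, had 158 TPM in JIB-04 and 142 TPM in DMSO (0.16).

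At the centre of the range, IARS1, the isoleucyl enzyme, was at 160 TPM in JIB-04 and 157 TPM in DMSO, with an interval from -0.03 to 0.06 and a sign that turned with FPKM. KARS1, the lysyl enzyme, which like GARS1 serves both compartments, was at 176 TPM in JIB-04 and 193 TPM in DMSO (-0.14, or 0.02 after median scaling). LARS1, for leucine, known also as a leucine sensor of the mTORC1 pathway, was at 55.9 TPM in JIB-04 and 64.8 TPM in DMSO (-0.21). These 3 genes lay close to the median of all described genes. HARS1, for histidine, was also close to it, at 62.4 TPM in JIB-04 and 72.9 TPM in DMSO (-0.22).

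The remaining 5 cytosolic genes were lower in JIB-04. FARSA and FARSB encode the alpha and beta subunits of phenylalanyl-tRNA synthetase, which works as a tetramer with an equal number of each. FARSB fell to 24.5 TPM in JIB-04, against 71.8 TPM in DMSO, a log2 ratio of -1.51 (interval -1.64 to -1.39), the lowest of all 35. FARSA was at 101 TPM in JIB-04 and 142 TPM in DMSO (-0.49). The transcript of the alpha subunit was therefore 4.12 times that of the beta subunit in JIB-04 and 1.98 times in DMSO. VARS1, for valine, fell to 85.5 TPM in JIB-04, against 200.0 TPM in DMSO (-1.22, interval -1.27 to -1.16), mostly over its 5′ exons. In level it was 18th of the 35 genes in JIB-04 and 6th in DMSO. RARS1, the arginyl enzyme, was at 111 TPM in JIB-04 and 164 TPM in DMSO (-0.56). QARS1, the glutaminyl enzyme, was at 95.8 TPM in JIB-04 and 144 TPM in DMSO (-0.58).

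**Figure D2:**
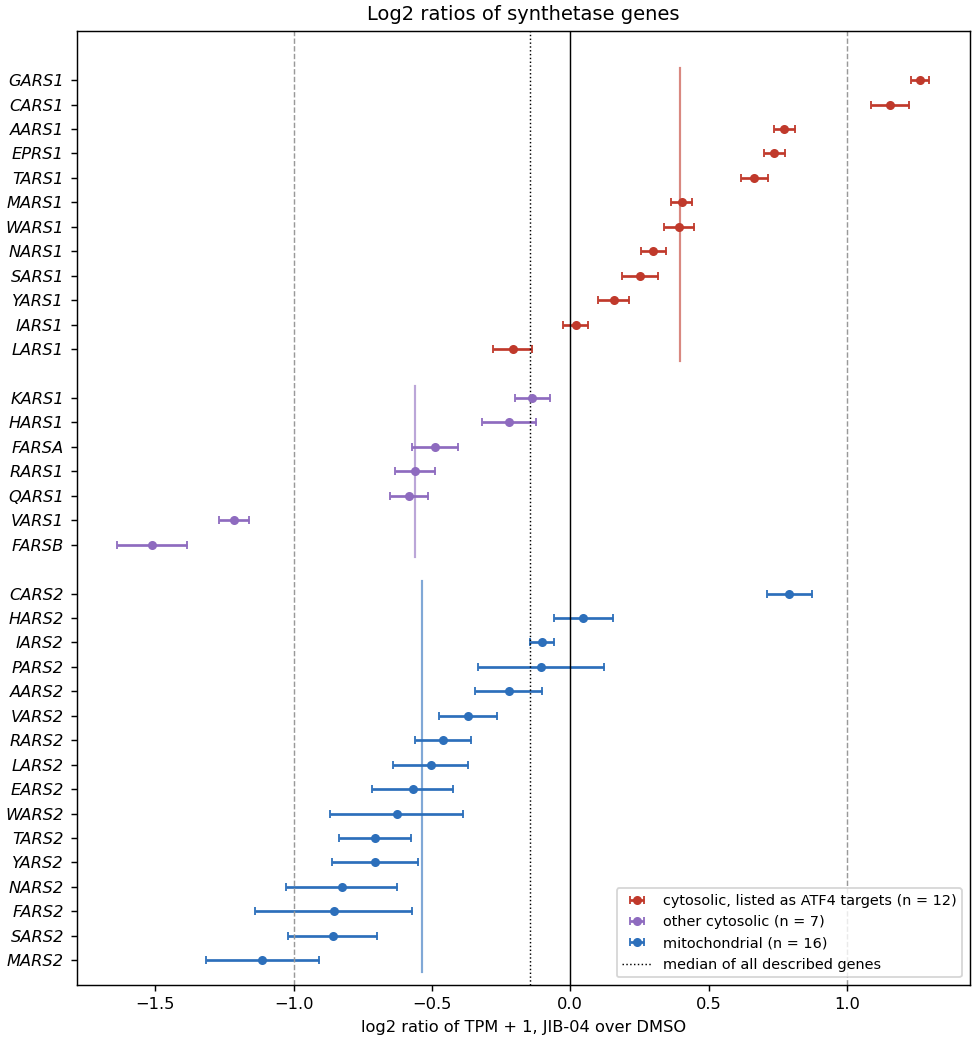
Log2 ratio of TPM + 1, JIB-04 over DMSO, of each synthetase gene with its 95% counting-error interval, in 3 groups: 12 cytosolic genes listed as ATF4 targets, 7 other cytosolic genes and 16 mitochondrial genes. Coloured lines mark the group medians (0.40, -0.56 and -0.54), the dotted line the median of all described genes (-0.15), and dashed lines 2-fold. Under median scaling KARS1, IARS2 and PARS2 move just above 0.

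Among cytosolic enzymes the listed ATF4 targets stood apart in direction from the rest. This list and that of the 14 other ATF4 targets were written from general knowledge with earlier results of these data known. The split is therefore not independent of the data. The first list holds 12 of the 19 genes. Of these 11 had a ratio above 0, beside 39.7% of all described genes, the exception being LARS1. The 12 genes had a median of 0.40 and a range from -0.21 to 1.27. The other 7 genes, FARSA, FARSB, HARS1, KARS1, QARS1, RARS1 and VARS1, were all below 0 with intervals wholly below 0, beside 46.2% of all described genes. Their median was -0.56, although KARS1 was at 0.02 after median scaling and HARS1 at 0.53 when only its most abundant transcript was taken. The medians differed by 0.96, and a part of ATF4 in this was not tested. ATF4 itself was at 900 TPM in JIB-04 and 557 TPM in DMSO, a log2 ratio of 0.69 (0.65 to 0.73), short of 2-fold. Of 14 ATF4 targets that are no synthetases 7 rose and none fell, beside 5.99% and 6.88% of all described genes, with a median of 1.04 and 13 above 0, beside 39.7%. STC2, a secreted glycoprotein, was the highest of them at 316 TPM in JIB-04 and 48.7 TPM in DMSO (2.67), followed by the stress-induced transcription factor ATF3 (2.15). The lowest were ATF5, at 54.6 TPM in JIB-04 and 54.8 TPM in DMSO, and CEBPG (0.53), both transcription factors of the same bZIP class as ATF4.

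The promoters were searched for the element that ATF4 binds, and the stretches around each match are shown because they come mostly from the listed ATF4 targets. ATF4 with a C/EBP partner is known to bind the C/EBP-ATF response element, whose core was searched as TGATGNAA on both strands, in the 250 bases before to 50 after each transcription start in the RefSeq table of GRCh38.p14. A promoter was listed for 30 of the 35 genes, the ones without being LARS1, VARS1, YARS1, AARS2 and VARS2. The core was present in 7 of the 10 listed ATF4 targets with a promoter, in 0 of 6 other cytosolic genes and in 1 of 14 mitochondrial genes, YARS2, beside 4.46% of all 27305 genes with a promoter (3.62% of 35116 promoters) and 5 of 12 other ATF4 targets. SARS1, EPRS1 and WARS1 had no match in this window. Carrying this element can be a reason why a gene is listed as an ATF4 target. Its share among the listed genes is therefore not separate evidence on the ratios. The matches are printed 5′ to 3′ on the strand of the gene with the core in capitals, and they are matches of letters and not mapped binding sites.
GARS1, chr7:30594834-30594863, plus strand: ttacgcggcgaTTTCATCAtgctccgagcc
CARS1, chr11:3057407-3057436, minus strand: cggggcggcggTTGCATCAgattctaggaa
AARS1, chr16:70289675-70289704, minus strand: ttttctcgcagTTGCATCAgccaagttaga
TARS1, chr5:33440956-33440985, plus strand: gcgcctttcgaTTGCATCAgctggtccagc
MARS1, chr12:57488053-57488082, plus strand: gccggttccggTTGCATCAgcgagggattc
NARS1, chr18:57621804-57621833, minus strand: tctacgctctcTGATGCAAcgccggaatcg
IARS1, chr9:92293692-92293721, minus strand: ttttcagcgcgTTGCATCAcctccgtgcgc
YARS2, chr12:32756076-32756105, minus strand: atccacactgcTGATGGAAaaattaagttt

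The same 8 letters, TTGCATCA or its reverse complement TGATGCAA, stood in AARS1, CARS1, IARS1, MARS1, NARS1 and TARS1, whereas GARS1 had TTTCATCA and YARS2 had TGATGGAA. The core lay within 33 bases of the listed start in 6 of the 8 genes, and farther upstream in AARS1, from -187 to -180 counted from that start, and YARS2, from -197 to -190. The log2 ratios of the 7 cytosolic genes with a match went from 0.02 for IARS1 to 1.27 for GARS1, and EPRS1, with no match, was at 0.74. YARS2, the one mitochondrial gene with the core, was at -0.71. Other motifs were searched in the same windows. CCGGAAGT, the core bound by ETS factors, was in the promoters of 5 of 16 cytosolic and 3 of 14 mitochondrial genes, beside 4.95% of all genes (4.14% of promoters). The binding motif of NRF1, a regulator of nuclear genes for mitochondria, was in those of 3 of 16 cytosolic and 3 of 14 mitochondrial genes, beside 6.98% of all genes (5.78% of promoters). The hypoxia element core ACGTG was in 4 of 16 and 5 of 14 (24.9% of all genes, 21.4% of promoters), the related GCGTG in 13 of 16 and 12 of 14 (40.6% of all genes, 36.5% of promoters), and the E-box CACGTG, which contains ACGTG, in 1 of 16 and 3 of 14 (8.77% of all genes, 7.26% of promoters).

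Other groupings of the cytosolic enzymes separated the ratios less. The 7 enzymes of the multisynthetase complex, EPRS1, IARS1, LARS1, MARS1, QARS1, RARS1 and KARS1, had a median log2 ratio of -0.14, that of KARS1, which was at 0.02 after median scaling. The 12 enzymes outside it had a median of 0.28. None of the 7 rose or fell, and of the 12 others 2 rose and 2 fell, beside 5.99% and 6.88% of all described genes. With so few genes these counts do not set the complex apart. Synthetases belong to class I or class II by the fold of their catalytic domain. The medians were 0.02 for class I and 0.25 for class II among 9 cytosolic genes each, EPRS1 being left out because it holds both folds, and -0.50 for class I and -0.70 for class II among 9 and 7 mitochondrial genes.

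Of the mitochondrial genes, CARS2, for cysteine, had the highest ratio and was the only one with an interval above 0. It was at 160 TPM in JIB-04 and 92.0 TPM in DMSO, a log2 ratio of 0.79 (0.71 to 0.87), exceeded only by GARS1 and CARS1 among the 35 genes. IARS2, for isoleucine, was the most abundant mitochondrial synthetase transcript, at 204 TPM in JIB-04 and 219 TPM in DMSO (-0.10, or 0.05 after median scaling). These 2 genes made up 55.5% of the mitochondrial sum in JIB-04 and 42.8% in DMSO, at levels like those of cytosolic genes. HARS2, for histidine, was at 52.5 TPM in JIB-04 and 50.7 TPM in DMSO (0.05, interval -0.06 to 0.15). PARS2, for proline, was at 9.91 TPM in JIB-04 and 10.7 TPM in DMSO (-0.11, interval -0.33 to 0.12), with a sign that turned under 2 scalings. Neither of these differences was beyond counting error.

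The other 12 mitochondrial genes had ratios from -0.22 to -1.11, each with an interval wholly below 0. MARS2, the methionyl enzyme, encoded by a single exon, fell to 7.11 TPM in JIB-04, against 16.6 TPM in DMSO (-1.11, interval -1.32 to -0.91). It did not reach 2-fold with a pseudocount of 5, with median scaling or with quantile normalization. SARS2, for serine, was at 21.3 TPM in JIB-04 and 39.4 TPM in DMSO (-0.86). FARS2, which unlike its cytosolic counterpart acts as a single chain, was at 6.31 TPM in JIB-04 and 12.2 TPM in DMSO (-0.86). NARS2, for asparagine, was at 10.4 TPM in JIB-04 and 19.1 TPM in DMSO (-0.83). These 3 came next after MARS2. Like YARS2, TARS2 and WARS2, they passed 1.5-fold but not 2-fold. Of YARS2, TARS2 and WARS2, for tyrosine, threonine and tryptophan, YARS2 was at 22.0 TPM in JIB-04 and 36.6 TPM in DMSO (-0.71). TARS2 was at 25.4 TPM in JIB-04 and 42.0 TPM in DMSO (-0.70). WARS2, the lowest transcript of all 35 in both libraries, was at 5.99 TPM in JIB-04 and 9.79 TPM in DMSO (-0.63). Ratios nearer to 0 were found for EARS2, LARS2, RARS2, VARS2 and AARS2.

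EARS2 attaches glutamate, in mitochondria also to the transfer RNA for glutamine, and was at 14.1 TPM in JIB-04 and 21.4 TPM in DMSO (-0.57). LARS2, the leucyl enzyme, was at 15.0 TPM in JIB-04 and 21.7 TPM in DMSO (-0.50). RARS2, the arginyl enzyme, was at 51.3 TPM in JIB-04 and 70.8 TPM in DMSO (-0.46). All 3 lay below the median of described genes, as VARS2 and AARS2 also did. VARS2, the valyl enzyme, was at 32.3 TPM in JIB-04 and 42.1 TPM in DMSO (-0.37). AARS2, the alanyl enzyme, was at 18.2 TPM in JIB-04 and 21.4 TPM in DMSO (-0.22), the smallest of the 12 differences.

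For most amino acids the cytosolic gene stood higher relative to DMSO than its mitochondrial counterpart. Of 17 pairs of a cytosolic and a mitochondrial gene for the same amino acid, 13 had a higher ratio for the cytosolic gene, each beyond counting error, and the median difference was 0.84 on the log2 scale. EPRS1 enters with both EARS2 and PARS2, and FARS2 with both FARSA and FARSB, so that the pairs are not all separate. The largest difference was for methionine, at 1.52 (interval 1.31 to 1.73), where MARS1 was 54.1 times MARS2 in JIB-04 and 17.6 times in DMSO. Threonine (1.37), glutamate (1.31), asparagine (1.13), serine (1.11) and tryptophan (1.02) also passed 1, and alanine was at 1.00. The cysteine pair differed from these in that both genes were higher in JIB-04, and its difference was 0.36. The order was turned for valine, at -0.85 (-0.96 to -0.73), for FARSB against FARS2 (-0.66) and for histidine (-0.27). The valine value rests on the 5′ exons of VARS1, whose exons 24 to 30 had a log2 ratio of -0.38, beside -0.37 for VARS2. For arginine the difference of -0.10 was within counting error (-0.23 to 0.02). Across the 17 pairs the ratios of the cytosolic and mitochondrial genes were weakly related, with Pearson's r = 0.32 and Spearman's rho = 0.20, as a description of genes read from the same 2 libraries.

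**Figure D3:**
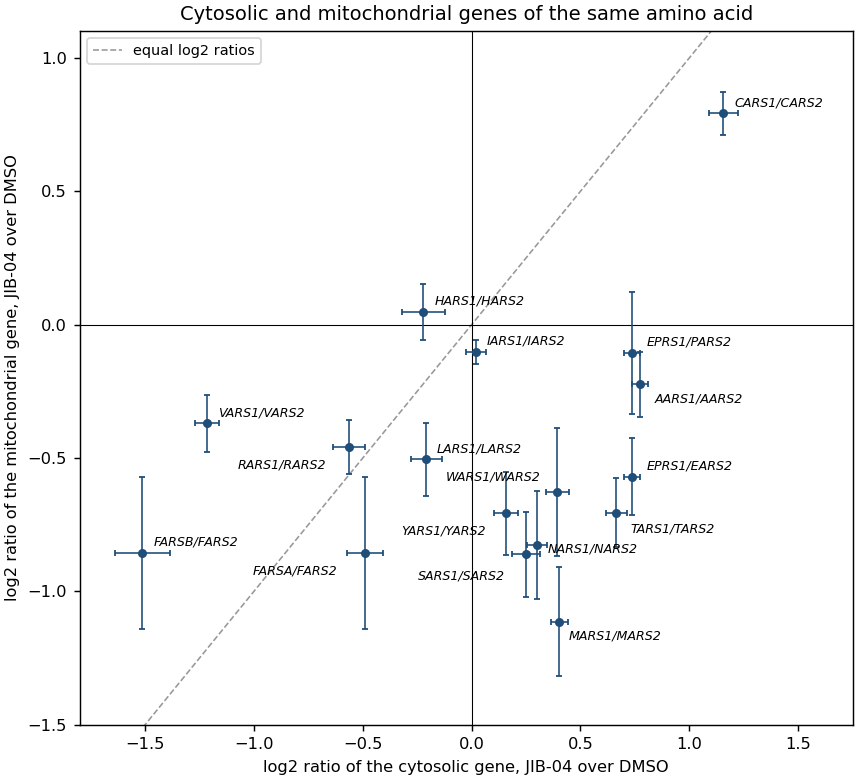
Log2 ratio, JIB-04 over DMSO, of the cytosolic gene (x axis) and the mitochondrial gene (y axis) for the same amino acid, 17 pairs, with 95% counting-error intervals. Points below the dashed line of equal ratios are the 13 pairs in which the cytosolic gene has the higher ratio, and CARS1/CARS2 is the only pair with both genes above 0, apart from IARS1/IARS2 and EPRS1/PARS2 when ratios are scaled to the median.

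Several genes had ratios that differed among their annotated transcripts. Of the 35 genes 15 had 1 annotated transcript and 20 had several, and the most abundant transcript was not the same in both libraries for 3 genes, IARS1, RARS2 and VARS2. StringTie shares reads between overlapping transcripts by estimation, so that these values are less sure than the sum for the gene. GARS1 had 99.9% of its TPM in 1 transcript in both libraries. All 5 transcripts of CARS1 had ratios above 0, from 0.15 to 1.83. The highest, of 2531 bases, was at 57.0 TPM in JIB-04 and 15.3 TPM in DMSO. KARS1 has a shorter transcript for the cytosolic enzyme and a longer one for the mitochondrial enzyme. The shorter, of 2013 bases, was at 102 TPM in JIB-04 and 137 TPM in DMSO, and the longer, of 2193 bases, at 73.7 TPM in JIB-04 and 56.1 TPM in DMSO. The longer transcript thus made up 42.0% of KARS1 in JIB-04 and 29.1% in DMSO.

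For HARS1 the transcript of 2306 bases held 92.0% of the level in JIB-04 and 54.2% in DMSO. It was at 57.5 TPM in JIB-04 and 39.6 TPM in DMSO, while the next, of 2246 bases, was at 2.24 TPM in JIB-04 and 17.1 TPM in DMSO. The ratio of HARS1 below 0 therefore came from its minor transcripts. TARS1 had a transcript against the trend of the gene, annotated as noncoding, of 2987 bases, at 9.63 TPM in JIB-04 and 48.7 TPM in DMSO, and its coding transcript of 2866 bases was at 101 TPM in JIB-04 and 48.6 TPM in DMSO. VARS2 showed the largest change of share. Its transcript of 3604 bases was listed at 0 in JIB-04 and at 30.8 TPM in DMSO, while the transcript of 3611 bases was at 18.1 TPM in JIB-04 and 10.1 TPM in DMSO and that of 3376 bases at 14.2 TPM in JIB-04 and 1.15 TPM in DMSO. The log2 ratio of the VARS2 total, -0.37, was nearer to 0 than that of any of its transcripts. The shorter transcript of NARS2, of 2038 bases, was listed at 0 in JIB-04 and at 3.67 TPM in DMSO. Both FARSB transcripts were lower in JIB-04, the coding one of 2480 bases at 13.4 TPM in JIB-04 and 48.2 TPM in DMSO and one annotated as noncoding, of 2676 bases, at 11.1 TPM in JIB-04 and 23.6 TPM in DMSO.

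The ratio of JIB-04 to DMSO mostly kept its direction along the members, although its size and the coverage itself varied from exon to exon. The files also give the coverage of each exon, which was scaled as the TPM is, and for the 15 genes with 1 transcript the exons of a gene can be compared directly. All 21 exons of AARS1 had ratios between 0.61 and 0.92, and all exons of EPRS1 (32), MARS1 (21) and CARS2 (15) were above 0, whereas all of FARSA (13) and RARS1 (15) were below 0. Within EPRS1 the ratios went from 0.27 to 1.08. Exons on both sides of 0 were found in AARS2 (-0.63 to 0.27), IARS2 (-0.38 to 0.13), LARS2 (-0.93 to 0.01) and YARS1 (-0.04 to 0.39). VARS1 stood out. Its 30 exons were all below 0, but exons 1 to 22, numbered from the 5′ end, were at 47.4 in JIB-04 and 184 in DMSO on the TPM scale (log2 ratio -1.93, single exons -2.33 to -1.62), and exons 24 to 30 at 184 in JIB-04 and 240 in DMSO (-0.38, single exons -0.49 to -0.18). Exon 23, of 69 bases, lay between them at -0.83. The gene is on the minus strand of chromosome 6 at 31745297 to 31763712 on hg19, and the step lies near 31748647. The lower level of VARS1 in JIB-04 was thus mostly that of its 5′ exons, and over exons 24 to 30 alone it did not reach 2-fold. In NARS1 the first 13 exons were at 361 in JIB-04 and 259 in DMSO (0.48), and the last exon, which holds 1122 of 2865 bases, at 171 in JIB-04 and 192 in DMSO (-0.16). In YARS2 the first 4 exons had a ratio of -0.58 and the last one -1.28. These places to split the genes were chosen after the values were seen.

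**Figure D4:**
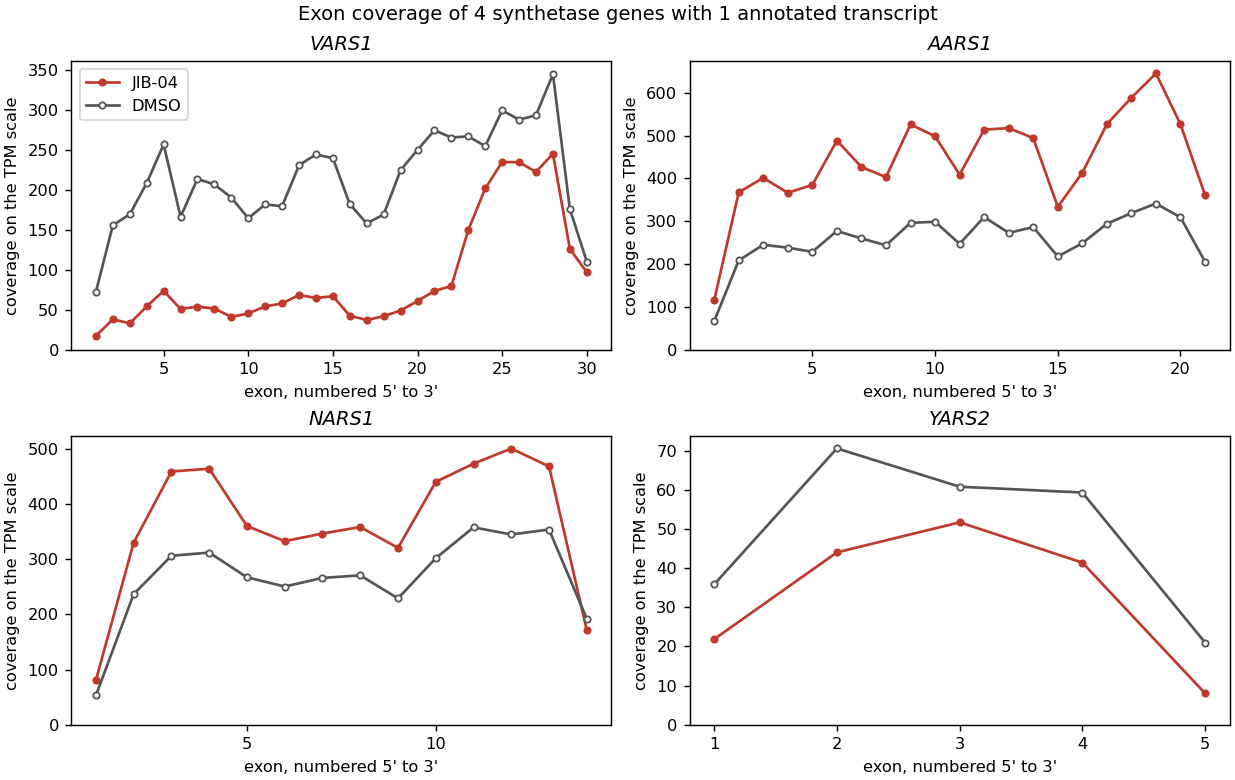
Exon coverage on the TPM scale along 4 synthetase genes with 1 annotated transcript, with exons numbered 5′ to 3′, filled points for JIB-04 and open points for DMSO. In VARS1 the JIB-04 line lies far below the DMSO line over exons 1 to 22 and comes near it over exons 24 to 30, in AARS1 the lines keep their distance, and in NARS1 and YARS2 the last exon departs from the others.

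When each gene with more than 1 exon, so without MARS2, was split at the middle of its exonic bases, the ratio of the 3′ part minus that of the 5′ part was 1.07 for VARS1, above 99.0% of the 12580 described genes of at least 1000 bases, and 0.72 for NARS2, above 98.1%. The other 32 of 34 members lay between the 5th and the 95th percentile of all genes (-0.57 and 0.42), with a median over all members of 0.05 and a median over all genes of -0.01. In 33 of 34 genes both parts gave the same sign, the exception being IARS1. Coverage is given per exon, so that the parts are less separate in genes of few exons such as PARS2.

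Overlap with other genes was small. No member shared exonic bases with another annotated gene on its own strand. HARS1 and HARS2, which lie head to head, overlap on opposite strands by 13.1% of the exonic bases of HARS1 and 11.6% of those of HARS2, and MARS1 overlaps DDIT3 on the opposite strand by 2.33%. Reads were assigned by strand. In a search of words of 50 bases against all GENCODE transcripts, 27 of the 35 genes shared none with another gene, and only SARS2 passed 10%, at 71.9%, all with 1 other annotated gene, so that the value of SARS2 could include reads of that gene.

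Genes of proteins that work with the synthetases were counted in lists of their own. The 3 scaffold genes of the multisynthetase complex were all lower in JIB-04 with intervals below 0, beside 46.2% of all described genes. Among them 1 fell, beside 6.88% of all described genes, EEF1E1, to 60.0 TPM in JIB-04, against 130 TPM in DMSO (-1.10). AIMP2 (-0.43) and AIMP1 (-0.31) were short of 2-fold. Another list, written by hand, was headed mitochondrial charging partners, a loose name for genes that are not all limited to charging in mitochondria. Of its 6 genes all were below 0 with intervals below 0, beside 46.2% of all described genes. Their median was -0.56, near that of the mitochondrial synthetase genes. Among them 1 fell, beside 6.88% of all described genes, TRNT1, which adds the CCA end to transfer RNAs, to 6.42 TPM in JIB-04, against 14.3 TPM in DMSO (-1.04). QRSL1 (-0.74), GATC (-0.50) and GATB (-0.48) encode the subunits of the amidotransferase that turns the glutamate attached by EARS2 into glutamine, and EARS2 itself was at -0.57.

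Enzymes that clear wrongly charged transfer RNAs were mixed. Of 6 genes for editing and deacylation 2 fell, beside 6.88% of all described genes. DTD2, a D-aminoacyl-tRNA deacylase, fell to 6.45 TPM in JIB-04, against 19.1 TPM in DMSO (-1.43), and AARSD1, an editing protein for alanine transfer RNA, to 10.2 TPM in JIB-04, against 21.6 TPM in DMSO. TARS3 was at 22.0 TPM in JIB-04 and 20.1 TPM in DMSO (0.12, interval -0.02 to 0.26), and PTRH2, a peptidyl-tRNA hydrolase, also at 0.12. None of the 6 genes of the selenocysteine route, which starts from serine attached by SARS1, rose or fell, beside 5.99% and 6.88% of all described genes. SEPHS2 was at 0.13 and EEFSEC at -0.71. Of 6 genes for export and delivery of transfer RNA 1 rose, beside 5.99% of all described genes, EEF1A2, an elongation factor form usual in muscle and neurons, to 49.0 TPM in JIB-04, against 13.4 TPM in DMSO (1.80). XPOT, the exportin for transfer RNA, was at 194 TPM in JIB-04 and 147 TPM in DMSO (0.40), while EEF1B2 (-0.32) and EEF1G (-0.20), elongation factor subunits, were below 0.

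**Figure D5:**
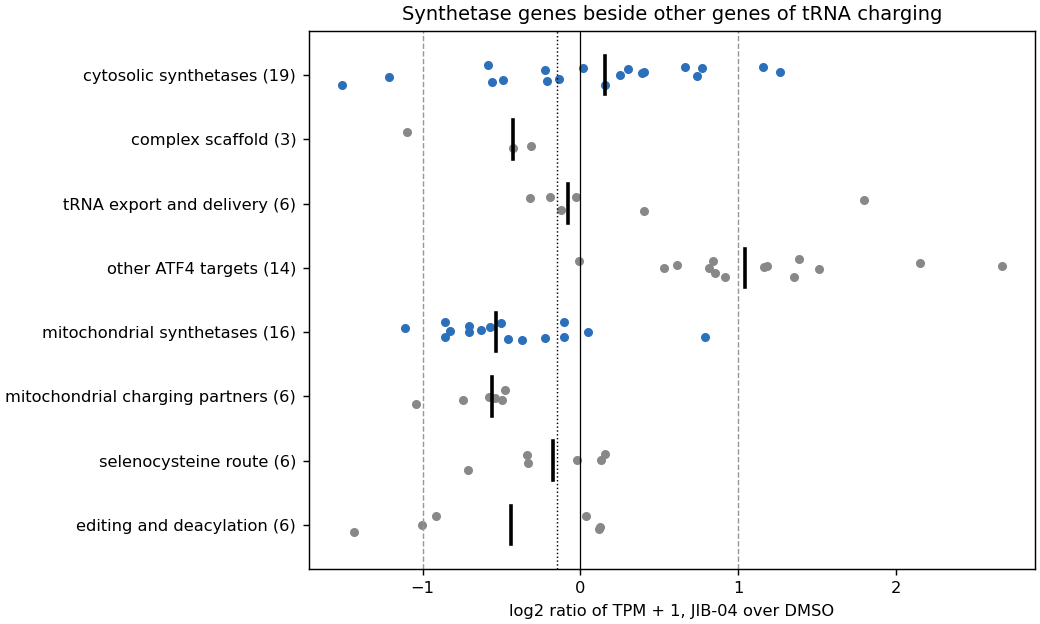
Log2 ratio of TPM + 1, JIB-04 over DMSO, of the cytosolic and mitochondrial synthetase genes (blue) and of 6 lists of related genes (grey), 1 point per gene and a bar at each list's median. The dotted line is the median of all described genes (-0.15) and dashed lines mark 2-fold, and the other ATF4 targets (median 1.04) lie farthest to the right.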

How the data were processed

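The authors prepared libraries with a TruSeq stranded mRNA kit. According to the submitters' processing notes the build was hg19 (GRCh37) and the tools were StringTie 1.3.3b, HISAT2 2.0.5 with Bowtie2 2.2.6, Trimmomatic 0.32 and FastQC 0.11.5, and the file headers show StringTie run on annotated RefSeq transcripts with a strand setting. The deposited values are coverage, FPKM and TPM per transcript, and other attributes such as coverage per exon, with no read counts. Symbols came from an NCBI RefSeq table, for 27559 of 27685 genes. Gene positions are those of the deposited files on hg19, and promoter positions those of GRCh38.p14.

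The transcript TPM of each gene were summed and compared as log2 ratios with a pseudocount of 1, which understates changes of low genes. Fragments were estimated as aligned bases over 202, the commonest value among weakly covered transcripts, where 28.1% (JIB-04) and 29.0% (DMSO) of genes with fewer than 1000 aligned bases were no more than 2 bases from a multiple of it. The interval procedure was tested on simulated data. All 35 members are accounted for. From each related list at most 4 genes are named with their values, the 2 highest and the 2 lowest ratios at a mean of at least 5 TPM, besides the markers PTPRC and CD14, named after their values were seen. The alternatives were other pseudocounts, filters, scalings, FPKM, single transcripts and other thresholds. Members and lists were chosen with earlier results of these data known. Python 3.11.15, numpy 2.4.6, pandas 2.3.3, SciPy 1.17.1 and matplotlib 3.10.9 were used. Protein identity of the pairs, listed as a planned description, was not run.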

Additional observations from a re-analysis of the deposited data

How the results depend on the processing

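No paired analysis was possible because each condition had 1 library. The medians of both groups kept their sign under every alternative, from 0.13 to 0.31 for the cytosolic and from -0.60 to -0.38 for the mitochondrial genes. A threshold of 1.5-fold gave 5 cytosolic and 1 mitochondrial gene higher and 2 cytosolic and 7 mitochondrial genes lower. At 3-fold 0 cytosolic genes were higher, 0 cytosolic genes were lower and 0 mitochondrial genes were lower, although FARSB, at -1.51, came near it. A lower threshold can only raise such counts or leave them, and a higher one can only lower or leave them. The shares of all described genes at these 2 thresholds were not counted, so these counts have no background beside them. The count of mitochondrial genes that fell was 0 with a pseudocount of 5, 0 with median scaling and 0 with quantile normalization, since MARS2 lay near 2-fold. It was 3 with only the most abundant transcript, where RARS2 and VARS2 joined MARS2. TARS1 rose there too, by a transcript annotated as noncoding. With FPKM the sign of IARS1 turned, with median scaling those of KARS1, IARS2 and PARS2, with quantile normalization that of PARS2, and with the most abundant transcript that of HARS1. Median scaling moved the described genes to 1119 higher and 679 lower, against 865 and 994. Lower fragment numbers widen the intervals of the mitochondrial genes, and differences between cultures were not measured.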
